A study of Arabidopsis thaliana with 2 samples.

Results

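The pectin methylesterase gene ATPMEPCRB (AT4G02330, also called PME41) and AT3G47380, a gene of the family that holds inhibitors of invertases and of pectin methylesterases, were examined in seedlings of an Arabidopsis thaliana mutant and of its wild type. All probe sets that the platform annotation assigns to 1 of these 2 genes alone were taken, which gave 2 probe sets for ATPMEPCRB and 3 for AT3G47380, out of 3794 single-gene probe sets for 3602 genes. The genes were chosen by their signals on the same 2 arrays described here, which were higher in the mutant. Their differences are therefore given as a description, with no test.

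The arrays were hybridised with RNA from whole seedlings of sks (snakeskin), an insertion mutant in the Col-0 background, and from Col-0 seedlings without a genetic modification. Seedlings of both genotypes were collected at stage 1.0 after growth at 22 °C under 24-hour light on Murashige-Skoog medium with 1% agar and 1% sucrose. There was 1 array per genotype, with no replicate, and the labels name neither the disrupted gene nor how many independent insertion lines were used. The deposited values are linear signals, 1 per probe set. A log2 difference below is always the sks value minus the Col value, and "higher" or "lower" compares these 2 RNA samples only.

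Pectin is the gel-forming polysaccharide of the primary cell wall, and its homogalacturonan backbone is delivered to the wall in a highly methylesterified form. Pectin methylesterases remove the methyl groups. The freed acidic stretches can bind calcium and stiffen the gel, or become substrates for polygalacturonases and pectate lyases, which cut the chain. Pectin methylesterase inhibitors are small proteins that bind the enzyme and block its active site, and related proteins of the same family inhibit invertases, which split sucrose. Many plant pectin methylesterases also carry a pro-region that resembles the inhibitor and is removed before the mature enzyme acts in the wall. Enzymes and inhibitors of both families take part in seedling growth and in responses to pathogens.

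Both genes had higher signals in sks than in Col on every one of their 5 probe sets, between 6.26-fold and 17.2-fold. The enzyme gene ATPMEPCRB was 7.21-fold and 7.81-fold higher. The inhibitor family gene AT3G47380 was 6.26-fold, 15.5-fold and 17.2-fold higher. Of the other pectin genes listed, the 5 whose signals passed the filter on low values differed by less than 2-fold. So did most single-gene probe sets that passed this filter, of which 7.58% reached 2-fold upward and 12.5% downward. The 5 genes are therefore no sign that the differences were particular to ATPMEPCRB and AT3G47380. In whole seedlings, more cells that express a gene and more RNA per cell cannot be told apart.

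For the enzyme gene, probe set 14612_at of ATPMEPCRB read 265.7 in sks and 34.0 in Col, a log2 difference of 2.97. Probe set 19267_s_at of the same gene read 400.1 in sks and 55.5 in Col, a log2 difference of 2.85. Both probe sets were high in the mutant and low in the wild type, and their log2 differences lay 0.12 apart. The suffix of the second marks probes that can also detect related transcripts, whereas the first has a plain suffix, so the difference of ATPMEPCRB did not rest on a shared-probe set alone.

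For the inhibitor family gene, probe set 14631_s_at of AT3G47380 read 378.7 in sks and 22.0 in Col, a log2 difference of 4.11. Probe set 13900_s_at read 366.8 in sks and 23.7 in Col, a log2 difference of 3.95. These readings were close to each other on both arrays, and their log2 differences lay 0.15 apart. Probe set 13539_i_at gave 163.4 in sks and 26.1 in Col, a log2 difference of 2.65, in the same direction but smaller. All 3 carry suffixes that mark probe sets with shared or incomplete probes, so part of any of these signals may come from a similar gene.

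**Figure D1:**
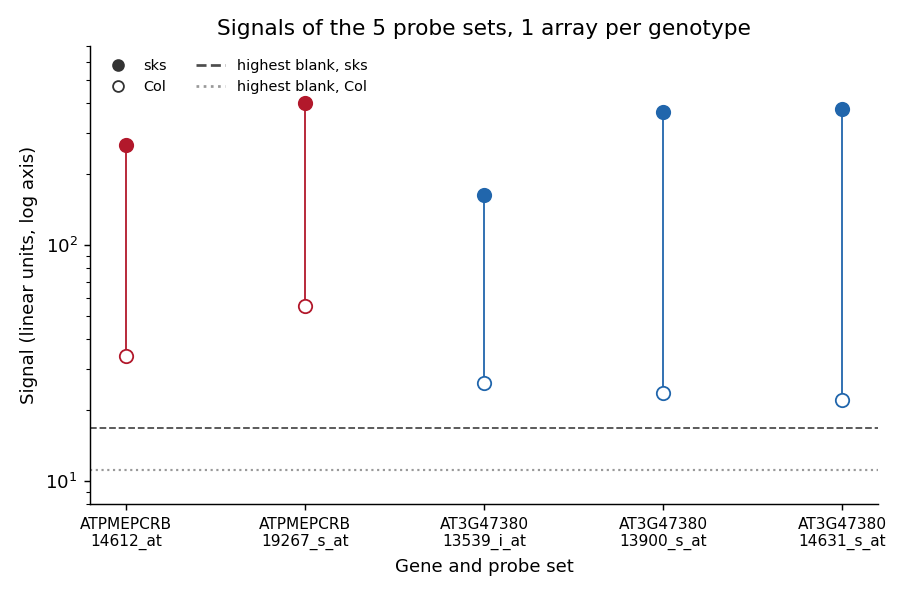
Signals of the 5 probe sets (log axis, linear signal units) on the sks array (filled points) and the Col array (open points), with the highest blank control signal of each array as a horizontal line. Every sks signal lies above its Col signal, and all 10 signals lie above both blank limits of 16.8 and 11.1.

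The Col signals of both genes were low but above the blanks. Control probe sets against sequences absent from plants served as blanks, and the highest of these 23 read 16.8 in sks and 11.1 in Col. The Col signals of AT3G47380 were 1.98 to 2.35 times the highest Col blank, and those of ATPMEPCRB 3.06 and 5.00 times. In sks the signals of both genes were 9.73 to 23.8 times the highest sks blank. The folds are thus ratios of readings above the blanks on both arrays rather than lower bounds, with the Col reading of AT3G47380 nearest to the limit.

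Probe sets with a mean log2 signal at or above the median of all non-control probe sets, a signal of 19.4, are called measured. All 5 probe sets passed this filter, and each lay above 19.4 on either array, so none entered through its mutant signal alone. Over all 4124 measured probe sets, the sks signal exceeded the Col signal by 2-fold or more in 8.12% and by 4-fold or more in 1.58%, and was lower by 2-fold or more in 12.4%. Within the range of mean signals that the 5 probe sets cover, 24 of 928 (2.59%) passed 4-fold upward. The 5 probe sets all passed 4-fold, which follows from the choice of the genes and is read no further. Ordered from the highest log2 difference among measured probe sets, the AT3G47380 probe sets stood at places 15, 17 and 37 and those of ATPMEPCRB at 32 and 34. Places in the list of 1716 measured single-gene probe sets were 5, 6 and 20 for AT3G47380 and 16 and 18 for ATPMEPCRB.

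Agreement between probe sets was compared with that of other genes. At least 2 measured single-gene probe sets were found for 80 genes, and the median range of their log2 differences was 0.33. The range of 0.12 for ATPMEPCRB was narrower than that, with 22 genes narrower still. The range of 1.46 for AT3G47380 was wider than in all but 3 of the other genes. Among the 9 genes with 3 or more measured probe sets the median range was 0.69. ATPMEPCRB and AT3G47380 were the 2 genes of the 80 in which every measured probe set was at least 4-fold higher in sks. For both this follows from the choice of the genes and is read no further. Probe sets of 1 gene were hybridised with the same RNA and can share probes, so their agreement is no measure of the error between seedling samples.

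**Figure D2:**
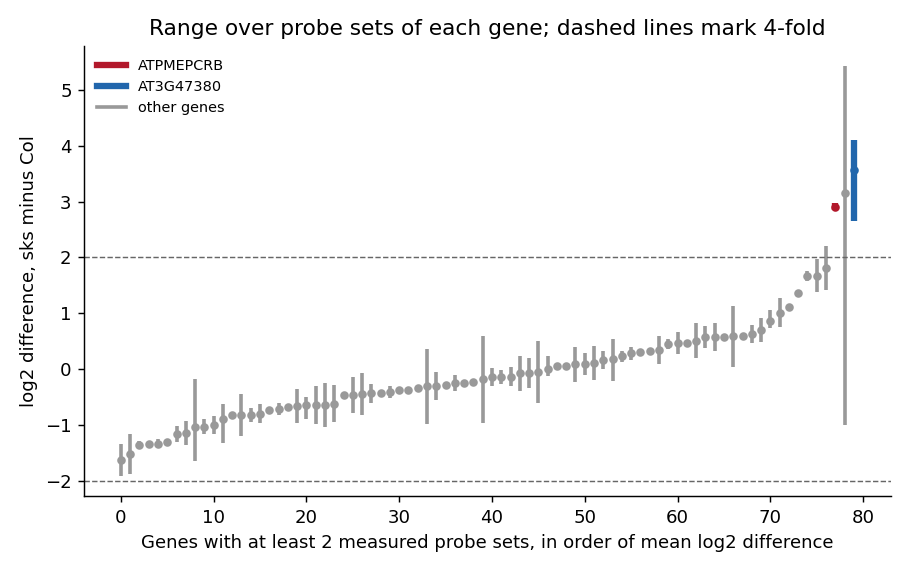
Range (vertical line) and mean (point) of the log2 differences over the measured probe sets of each of 80 genes, in order of the mean, with dashed lines at 4-fold. ATPMEPCRB (red) has a range of 0.12 and AT3G47380 (blue) of 1.46. Both lie wholly above the upper dashed line, which follows from the choice of the genes.

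The wide range of AT3G47380 came from 13539_i_at. Without it the range was 0.15. Both an _i_at and an _s_at probe set were measured in 17 genes, AT3G47380 among them. The absolute difference was smaller on the _i_at probe set in 9, AT3G47380 included, and 15 had the same direction on both suffixes. A smaller difference on the _i_at probe set was thus about as common as a larger one among these genes.

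Which gene differed more depended on the probe set. Both _s_at probe sets of AT3G47380 had larger log2 differences than either probe set of ATPMEPCRB, whereas 13539_i_at had a smaller one, 0.32 below 14612_at. The mean log2 difference over probe sets was 3.57 for AT3G47380 and 2.91 for ATPMEPCRB, a gap of 0.66 that grew to 1.12 without the _i_at probe set. Since 1 probe set turned the order, no order between the enzyme and the inhibitor family gene is given, and signals of different probe sets were not set against each other as transcript amounts.

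Of 111 other genes of pectin metabolism listed by hand, 15 had a single-gene probe set and 5 were measured. Of these 5 genes, 0 passed 2-fold upward and 0 downward, beside 7.58% upward and 12.5% downward of all measured single-gene probe sets. With 5 genes these shares amount to fewer than 1 gene in either direction, so the counts of 0 say nothing particular about pectin genes. Their log2 differences ran from -0.38 to 0.40 with a median of 0.09, beside a median of -0.10 for all measured single-gene probe sets. The median of the 5 was -0.35 when the mutant array was scaled to the spike controls, so no direction is given for it. The hand-written list may leave out genes of these families, so its counts cover the listed genes only.

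Among the enzymes, ATPMEPCRD (AT2G43050), the other measured pectin methylesterase of the list, read 92.6 in sks and 73.2 in Col, a log2 difference of 0.34. ARA12 (AT5G67360), a subtilisin-type protease known for its part in the release of seed coat mucilage, read 308.7 in sks and 233.5 in Col. Both were within 2-fold. Among the inhibitors, AT4G25260, entered in the list as a pectin methylesterase inhibitor, read 57.0 in sks and 69.3 in Col, a log2 difference of -0.28. This was within 2-fold, as were most measured probe sets.

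Of genes entered in the list as pectate lyases, which cleave de-esterified pectin, AT1G04680 read 105.1 in sks and 98.5 in Col. AT4G24780 gave 275.8 in sks against 358.8 in Col on 12313_g_at, and 106.1 against 131.2 on 12312_at. These chain-cutting enzymes were within 2-fold on all 3 probe sets.

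**Figure D3:**
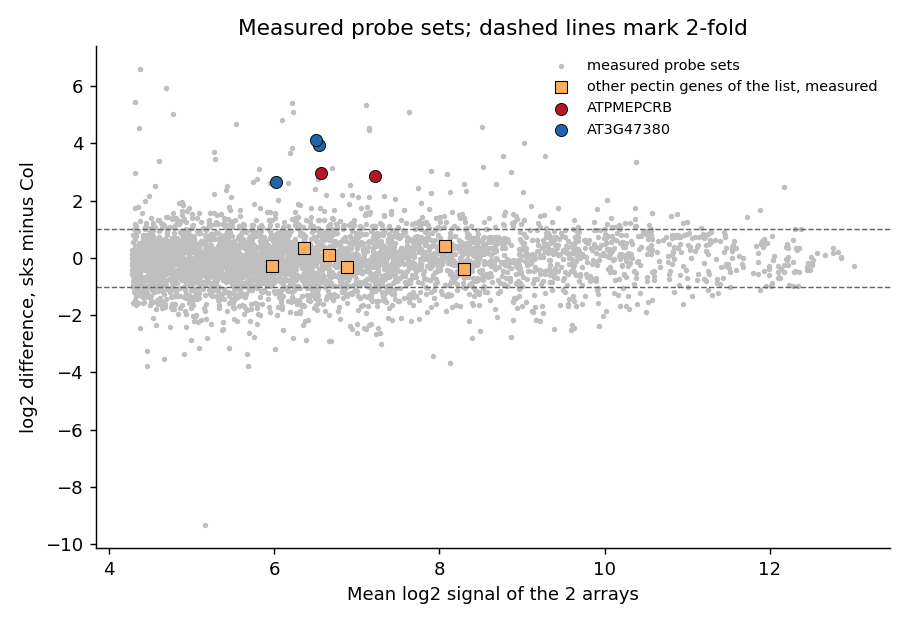
log2 difference (sks minus Col) against the mean log2 signal of both arrays for 4124 measured probe sets (grey), with the 2-fold limits dashed. The ATPMEPCRB (red) and AT3G47380 (blue) probe sets lie between 2.65 and 4.11, while the 6 measured probe sets of other pectin genes (squares) lie between -0.38 and 0.40.

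The remaining 10 listed genes with a probe set were below the filter, and 9 of them were within the blank range on both arrays. AT2G47550, entered as a pectin methylesterase, was the exception at 24.6 in sks and 12.3 in Col, exactly 2-fold. Its Col signal was just above the blank limit of 11.1, so the ratio is imprecise. The pectin methylesterase genes of the list within the blank range on both arrays included VGD1 (2.8 and 4.3 in sks and Col) and VGDH1 (1.2 and 4.6), known from pollen tubes. AT1G23200, also entered as a pectin methylesterase, read 1.1 and 9.9. The polygalacturonase gene ADPG1, which acts in pod and anther opening, read at most 2.7 on either array. No single-gene probe set was found here for the listed pectin acetylesterases, pectin synthesis enzymes or wall-associated receptor kinases, so their levels are unknown rather than low.

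ATPMEPCRB lies on chromosome 4 in a stretch that holds other pectin methylesterase genes, and the order of protein-coding genes in the RefSeq table (TAIR10.1) was used to read its neighbours. AT4G02320, the gene next to it and entered in the list as a pectin methylesterase, read 1.0 in sks and 1.3 in Col. AT4G02300 (PME39), 3 places away, read 1.7 and 0.9. Both were within the blank range on either array, unlike ATPMEPCRB, so the high sks signals in this stretch were not shared by these related neighbours.

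Within 10 places of ATPMEPCRB, 9 genes had a probe set and 5 were measured, of which 1 passed 2-fold upward and 0 downward. The 1 was AT4G02360, 3 places away on the other side, which read 79.2 in sks and 7.5 in Col. Its Col signal was within the blank range, so AT4G02360 passed the filter through its sks signal alone, and the count of 1 depends on this. Against the highest Col blank it was at least 7.14-fold higher. The 4 other measured neighbours were within 2-fold. AT4G02340, the adjoining gene on that side, read 62.4 in sks and 69.2 in Col, and GH9B13, a gene of the glycosyl hydrolase family that includes cellulases, 50.0 and 28.3. AT4G02370 read 123.0 and 71.0, and AT4G02230 134.8 and 78.1. AT4G02250 and AT4G02310 were within the blank range on both arrays.

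Next to AT3G47380 on chromosome 3, AT3G47370 read 2423.5 in sks and 725.4 in Col, a 3.34-fold difference. It was the 1 measured protein-coding gene within 10 places. AT3G47342, annotated as a small nucleolar RNA gene, is separated from AT3G47380 by 3 protein-coding genes and was also measured. It read 242.8 in sks and 52.9 in Col on its _i_at probe set, and 42.2 and 15.8 on its _r_at probe set. Which transcript these probe sets detect in RNA primed with oligo-dT was not tested. AT3G47400, 2 places away on the other side and below the filter, read 6.6 in sks, within the blank range, and 23.0 in Col. AT3G47400 is not in the hand-written list of pectin genes and enters none of its counts. As that list may leave out genes of these families, its absence there does not show that it lies outside them. ATSMC2 (AT3G47460), 8 places away, read 0.4 and 0.8. The measured neighbours of the inhibitor family gene, AT3G47370 and AT3G47342, were thus higher in sks. AT3G47400 read lower in sks, with a Col signal above both blank limits of 16.8 and 11.1, but its sks signal was too dim for a fold. ATSMC2 was within the blank range on both arrays.

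As a gauge, measured genes at least 2-fold higher in sks had 321 measured neighbours within 10 places over the whole genome, counted once for each such gene. Of these, 38 (11.8%) were themselves at least 2-fold higher, beside 6.89% of the 1612 measured genes placed in the order. With 6 measured protein-coding neighbours in all, nothing particular to ATPMEPCRB and AT3G47380 can be read from theirs.

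**Figure D4:**
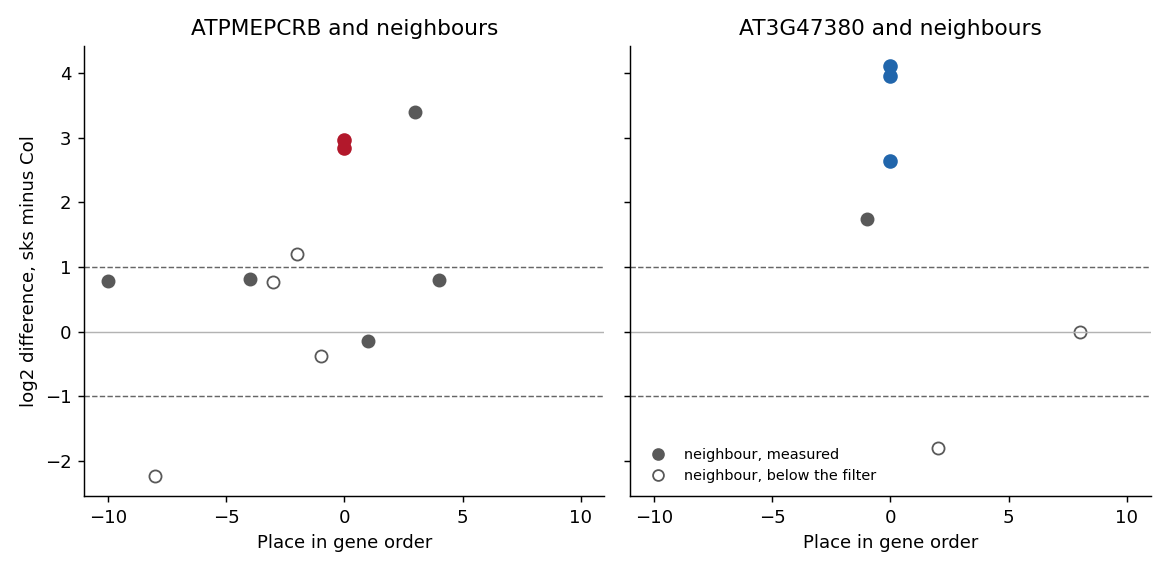
log2 difference (sks minus Col) of single-gene probe sets by place in the order of protein-coding genes, within 10 genes of ATPMEPCRB (left, red) and AT3G47380 (right, blue), with filled points for measured neighbours, open points for those below the filter and 2-fold limits dashed. AT4G02360 at place 3 and AT3G47370 at place -1 are the measured protein-coding neighbours above the upper limit.

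The genes most like each of the 2 were taken as those whose signals on the 2 arrays lay nearest to its brightest probe set, by Euclidean distance in log2 units. Nearest to 19267_s_at of ATPMEPCRB were AT2G45710 at 292.5 in sks and 50.5 in Col, and AT2G18150 at 295.4 and 67.7. Next came AT3G47342 near AT3G47380, annotated as a small nucleolar RNA gene, at 242.8 and 52.9. Nearest to 13900_s_at of AT3G47380 were AT1G27020 at 279.9 in sks and 19.7 in Col, AT2G34930 at 260.8 and 20.6, and ICL, the isocitrate lyase gene of the glyoxylate cycle, at 308.7 and 35.3. ATPMEPCRB came next after these 3, through 14612_at, at a distance of 0.70. AT3G47380 stood at place 14 in the list for ATPMEPCRB. With 2 arrays a pattern consists of 2 signals, so likeness here says little more than a similar brightness and fold.

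Tissue and array measures differed between the samples as follows. Green tissue markers were bright on both arrays, with the 4 of 5 that had a probe set at 1848.3 to 4306.8 in sks (sum 13195) and 2710.7 to 5970.1 in Col (sum 20254). Of 4 seed markers only ICL had a probe set, 308.7 against 35.3, and of 5 wounding and defence markers only THI2.1, 487.9 against 11.4 on its brightest probe set. Its _s_at probe set read 156.4 against 4.8, and its _i_at probe set went the other way, at 15.2 against 30.4. Of 4 pollen markers 3 had a probe set, with sums of 230.3 in sks and 680.4 in Col. Most of these sums came from ACT11, at 192.2 and 599.9. TUA1 read 35.3 and 76.2, and the pollen gene VGD1 was within the blank range. The 2 root markers had no probe set. All 9 hybridisation spikes were brighter on the sks array, by 1.12-fold to 1.85-fold, and the GAPDH ratio of 3′ over 5′ signal was 4.14 in sks and 2.94 in Col, while that of ubiquitin was 4.65 and 4.84. The part of these differences in the signals of ATPMEPCRB and AT3G47380 was not tested. With sks signals lowered by the median spike ratio of 1.36, the log2 differences of the 5 probe sets were still 2.20 to 3.66.

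Under 6 other ways of scaling the arrays or treating low signals, all 30 values of the 5 probe sets stayed at least 4-fold higher in sks. They ranged from 2.09 for 13539_i_at with an offset of 16 added to every signal to 4.22 for 14631_s_at after removal of the intensity trend. Median centring, spike scaling and the blank floor shift the 5 probe sets equally or not at all, so they cannot change their order. In the 3 settings that shift them unequally, 13539_i_at kept the smallest difference and both _s_at probe sets of AT3G47380 stayed above both of ATPMEPCRB, while 19267_s_at of ATPMEPCRB passed above 14612_at with the added offset.

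**Figure D5:**
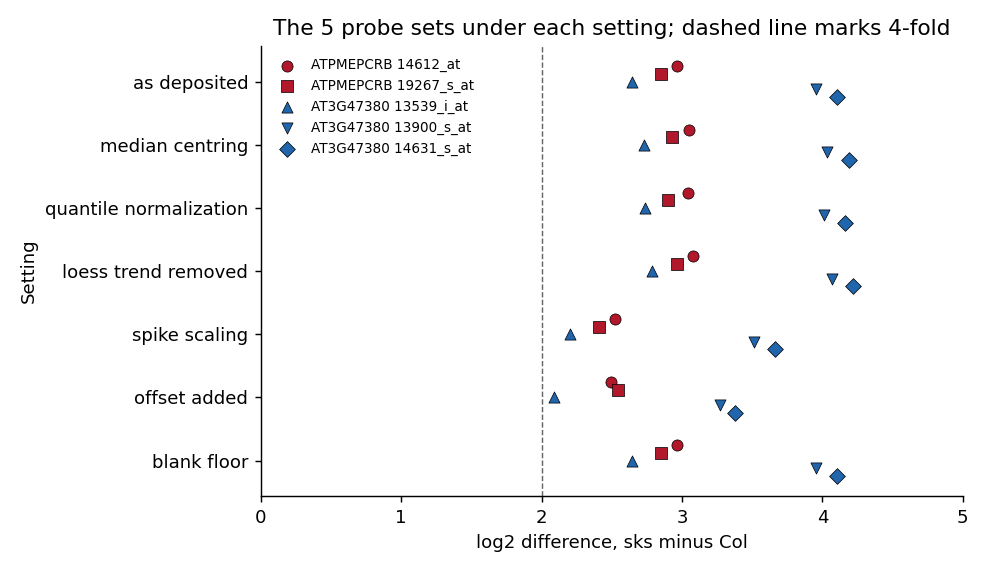
log2 difference (sks minus Col) of the 5 probe sets with the deposited scaling and under 6 alternatives, ATPMEPCRB in red and AT3G47380 in blue, with a dashed line at 4-fold. All points lie to the right of the line, from 2.09 to 4.22.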

How the data were processed

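Per the labels' protocols, total RNA was reverse-transcribed from an oligo-dT primer with a T7 promoter and transcribed into biotin-labelled cRNA. The authors deposited 1 linear signal intensity per probe set for 2 arrays of 8297 probe sets. Which software summarised the probes is not given in the sources used here. Because the 2%-trimmed mean was 100.0 on both arrays, the intensities were used without rescaling. Signals under 1 were set to 1 and log2 was taken (Python 3.11.15, pandas 2.3.3). Controls (50 probe sets) were excluded, leaving 8247. With 1 array per genotype there is no p-value or standard error, and the number of arrays limits the precision. The platform annotation, which can be old, gave 3794 probe sets 1 gene, 70 several, and none to 4383; 3784 matched RefSeq (TAIR10.1) by Entrez ID. Named were both genes, list genes with a probe set except pectate lyases below the filter, genes within 10 places and the 3 nearest in signal. List genes were represented by their brightest probe set. List roles of genes that RefSeq names by locus alone come from the hand-written list. The members and lists were chosen with earlier results of these data known. Counting was tested on simulated data with set changes and an assumed noise, which checks the counting step and not the error of these arrays.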

Additional observations from a re-analysis of the deposited data

How the results depend on the processing

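The 6 alternatives for scaling and low signals were median centring, quantile normalization, removal of the intensity trend (span 0.3), spike scaling, an added offset of 16 and a floor at the highest blank. A value was counted as moved when it shifted by more than the pooled SD of 0.65 between probe sets of 1 gene, and a count when it changed by more than 1.5 times. Of 99 alternative values, 83 did neither and 16 moved, and no difference of 2-fold or more changed sign. That SD rests largely on THI2.1 and was 0.37 without it (added after seeing the data). By this narrower limit 9 of the 30 values of the 5 probe sets moved instead of 2, namely all 5 with spike scaling and 4 with the offset. The added offset moved AT3G47380 to 3.27 on 13900_s_at and 3.38 on 14631_s_at, since it acts most on their low Col signals. The numbers that passed 2-fold upward (335) and downward (510) were 135 and 1092 with spike scaling, 222 and 334 with the offset, 194 and 259 with a filter set to the 75th percentile, 1014 and 1265 with no filter, 105 and 185 at 3-fold, and 752 and 1053 at 1.5-fold. With no filter, 2 list genes passed 2-fold upward and 2 downward. Of these 4, 3 were within the blank range on both arrays, and AT2G47550 was not. The list median was negative with spike scaling (-0.35) and over plain-suffix probe sets (-0.09). No paired analysis was possible because sks and Col had a single array each, for which reason leaving out a replicate was not possible either.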
